A study of Rattus norvegicus with 3 samples.

Results

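Cycling intermediate progenitors of the embryonic rat cerebral cortex are described here: single cells that held transcripts of Eomes together with transcripts of the division machinery. A cell was kept if at least 1000 genes were detected in it and at most 10% of its transcripts came from mitochondrial genes. It was a member if it held at least 3 unique molecular identifiers (UMIs, 1 per captured transcript) of Eomes, fewer than 5 of Reln, and at least 3 of Top2a, Mki67 and Cenpf summed. This gave 1347 members among 15327 kept cells, or 8.79% (8.34 to 9.25). Intervals throughout are exact 95% intervals for counting error only.

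Intermediate progenitors are the daughters of radial glia, the stem cells that line the ventricle, and divide in the subventricular zone to give excitatory neurons. They switch on the T-box factor Eomes (also called Tbr2) downstream of the proneural factor Neurog2, lose the apical attachment of radial glia, and show Delta ligands that keep Notch active in their radial glial neighbours. Reln, the secreted signal of Cajal-Retzius neurons, was in the rule because these neurons can also express Eomes. Top2a untangles replicated DNA, Mki67 coats mitotic chromosomes and Cenpf binds the kinetochore, and all are made mainly from S phase to mitosis.

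The study took wild-type rats (Rattus norvegicus) and profiled their freshly dissociated embryonic cortex by droplet single-cell RNA sequencing at embryonic days 14, 16 and 18, with 1 library for each label. The libraries are called E14, E16 and E18 here. Tissue was dissociated with papain, and neither strain, sex nor the number of pooled embryos is given. The labels also carry protocol text on cultured cells, multiplexing and a sort for human cells that does not match rat tissue, and which of those steps applied is not known. With 1 library for each label and members chosen on these counts, no test was made, and every difference between libraries is between libraries as labelled. Whether labels or files are crossed cannot be told from them: the stage genes described later were at their youngest pattern in E16 and their oldest in E14, so no value here should be read as a time course.

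A pair of facts bears on every comparison between libraries. Over all usable genes (a mean of at least 5 CPM) E18 stood between the others more often than E16: of 890 genes at least 2-fold apart between any pair of libraries in the members, 663 (74.5%) had their intermediate level in E18, 131 in E16 and 96 in E14. The libraries also differed in quality, with a median mitochondrial share over all kept cells of 6.94% in E14, 3.97% in E16 and 5.04% in E18. The deposited files held 62740631, 80974234 and 73727823 UMIs in label order. The libraries shared 17, 13 and 12 cell barcodes pairwise (E14 with E16, E14 with E18, E16 with E18), and 1 shared barcode was a member in both E16 and E18.

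Genes outside the rule matched the intermediate progenitor part of the label. Gadd45g, a stress-response gene induced by proneural factors, had a median of 5 UMIs per member in E14, 12 in E16 and 9 in E18. Neurog2 had a median of 5 UMIs in each library. Together these 2 genes gave at least 3 UMIs in 88.2% of members in E14, 91.4% in E16 and 658 of 709 in E18. They were not particular to members. In Eomes cells with no UMI of Top2a, Mki67 or Cenpf the shares were 69.2%, 69.0% and 83.6%. Neurog2 was found in 68.8%, 43.4% and 66.1% of those cells after thinning to 5000 UMIs a cell. Thinned to 5000 UMIs a cell, Neurog2 was found in 68.9%, 75.1% and 73.0% of members, against 0%, 5.43% and 6.38% of vascular and meningeal cells (13, 129 and 47 cells) that should lack it. A count of 0 of 13 cells allows a share of up to 23.1%. Members without any Neurog2 UMI in the full data numbered 21, 58 and 73, and those without Gadd45g 20, 21 and 29.

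Eomes itself, which chose the members, had a median of 10 UMIs in E14, 9 in E16 and 12 in E18. The 3 cycle transcripts summed to a median of 25, 24 and 25. Close to the thresholds, 10, 57 and 48 members held exactly 3 Eomes UMIs, and 15, 55 and 54 cells were left out with 2. Likewise 12, 32 and 44 members had a cycle sum of 3, and 26, 43 and 64 Eomes cells were left out with 2. In those just inside, summed Ccnb1 (cyclin B1, the mitotic cyclin) was 41.7, 33.6 and 21.7 UMIs per 1000000 (CPM), against 6.13, 35.0 and 21.4 CPM just outside. Reln at 5 or more UMIs removed 0, 4 and 7 cells.

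Members were 186 of 4444 kept cells in E14 (4.19%, 3.62 to 4.82), 452 of 5193 in E16 (8.70%, 7.95 to 9.5) and 709 of 5690 in E18 (12.5%, 11.6 to 13.3). The share was lowest in E14 and highest in E18. With cells thinned to 5000 UMIs the order was the same, at 2.21%, 5.07% and 8.24%. As a share of all cells with at least 3 Eomes and fewer than 5 Reln UMIs, they were 23.5% (20.5 to 26.6) of 793 cells in E14, 55.7% (52.2 to 59.2) of 811 in E16 and 40.7% (38.4 to 43.1) of 1741 in E18. Among Eomes cells, then, the cycling fraction was highest in E16, where Eomes cells were 15.6% of kept cells, against 17.8% in E14 and 30.6% in E18. Thinned to 5000 UMIs a cell the same order was seen, at 15.2%, 47.6% and 33.8%.

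The position of E14 rested on the mitochondrial filter. With at most 5% mitochondrial UMIs only 367 kept cells remained in E14, against 3894 in E16 and 2780 in E18, and the cycling share of Eomes cells became 69.7%, 72.0% and 55.1%. Members then made up 25.1%, 9.86% and 20.3% of kept cells, so that E14 was the highest of the 3. Members had lower mitochondrial shares (medians of 5.04%, 3.95% and 4.23%) than Eomes cells without cycle transcripts (6.86%, 5.46% and 5.27%). Members were also deeper, with medians of 15238, 13050 and 13764 UMIs against 8646, 8520 and 8600. The part of quality and depth in the shares was not tested beyond these values.

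**Figure D1:**
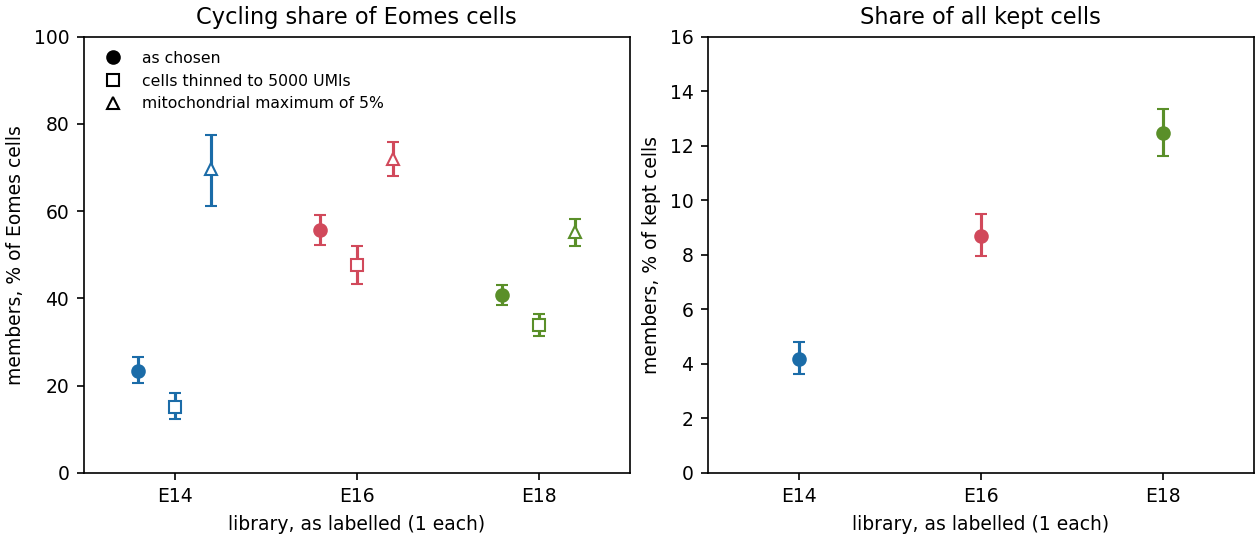
Left, members as a percentage of Eomes cells (at least 3 Eomes and fewer than 5 Reln UMIs) in each library as chosen (filled circles), after thinning to 5000 UMIs (squares) and with a mitochondrial maximum of 5% (triangles). Right, members as a percentage of kept cells; bars are exact 95% binomial intervals. E14 is the lowest of the 3 in every series except the one with the 5% maximum, where it stands at 69.7%.

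The number of members was also set against that of cycling radial glia. Cycling progenitors without Eomes (Eomes at 0, fewer than 5 Reln UMIs, at least 3 of Pax6 and Sox2 summed and the same cycle sum) numbered 215, 2212 and 1058. Members per such cell came to 0.865 (0.707 to 1.06) in E14, 0.204 (0.184 to 0.226) in E16 and 0.670 (0.608 to 0.738) in E18. E16 thus had the fewest members per cycling radial glial cell, and E14 and E18 had intervals that overlapped. After thinning the ratios were 0.588, 0.190 and 0.565, and over all alternatives tried E16 stayed between 0.162 and 0.229.

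Members were next set against 2 other populations of the same library, 1 that differs from them by the cycle transcripts and 1 by Eomes. One was the 484, 245 and 766 Eomes cells with no UMI of Top2a, Mki67 or Cenpf, which can hold intermediate progenitors outside these phases and newborn neurons alike. The other was the cycling Eomes-free progenitors above. Counts were summed over the cells of a population and library. A gene was called higher or lower where its CPM, with 1 CPM added, differed at least 2-fold in the same direction in all 3 libraries. Both comparisons share genes with the rule, so their counts are descriptions.

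Over the Eomes cells without cycle transcripts, 483 of 10204 usable genes were higher in members (4.73%) and 100 were lower (0.98%). With the call resting on 2 libraries the lower count was 191 without E14 and 194 without E18. The genes of G2 and M phase stood apart as a block. All 30 of a list of 30 were higher, with median log2 ratios of 5.46 in E14, 4.60 in E16 and 5.04 in E18, beside medians over all usable genes of -0.04, 0.02 and -0.03. Nusap1, which bundles spindle microtubules, was at 400, 369 and 434 CPM in members and at 4.05, 7.68 and 4.52 CPM in the other Eomes cells. Ube2c, the ubiquitin-conjugating enzyme of the anaphase-promoting complex, was at 573, 764 and 633 CPM against 7.46, 19.9 and 12.6. Ccnb2, cyclin B2, was at 247, 158 and 176 CPM against 3.20, 4.07 and 4.52.

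Genes of DNA replication differed less, and most in E14. Of 24 S phase genes, 17 were called higher and none lower, with medians of 2.31, 1.25 and 1.47. Rrm2, the regulated subunit of ribonucleotide reductase, had the widest gap, at 49.7, 70.8 and 51.7 CPM in members against 0.43, 7.23 and 1.06. Pcna, the sliding clamp of the replication fork, was at 407, 370 and 423 CPM against 86.8, 154 and 141. Cells without Top2a, Mki67 or Cenpf UMIs thus still held transcripts of Pcna.

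Promoter sequences of the G2 and M genes are shown because this block separated members from other Eomes cells in all 3 libraries. Such genes are known to carry the cell cycle homology region (CHR), where the DREAM complex holds them off in resting cells and B-MYB and FOXM1 act in G2, beside CCAAT boxes bound by NF-Y. RefSeq windows (build GRCr8, 250 bases before to 50 after the annotated start) were found for 26 of the 30 genes and searched on both strands for TTTGAA (CHR) and CCAAT. The CHR string was in 20 of 26 windows (76.9%), against 18.1% of 27457 promoters. CCAAT was in 21 (80.8%), against 37.7% of all. Both were in 17 (65.4%), against 7.25% of all. In 17 of the 20 windows with a CHR string the last one began within 100 bases before the start or after it, and in 1 window a CHR string and a CCAAT box overlapped. In the 4 windows below, capitals mark the CHR strings and the CCAAT boxes, on either strand.
Ccnb2: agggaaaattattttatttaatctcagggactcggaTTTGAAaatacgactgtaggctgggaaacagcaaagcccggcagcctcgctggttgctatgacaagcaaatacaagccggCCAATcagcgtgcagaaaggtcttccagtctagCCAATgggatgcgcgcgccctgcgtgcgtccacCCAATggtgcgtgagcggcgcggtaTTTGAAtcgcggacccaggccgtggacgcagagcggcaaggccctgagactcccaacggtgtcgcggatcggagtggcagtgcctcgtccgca
Cdk1: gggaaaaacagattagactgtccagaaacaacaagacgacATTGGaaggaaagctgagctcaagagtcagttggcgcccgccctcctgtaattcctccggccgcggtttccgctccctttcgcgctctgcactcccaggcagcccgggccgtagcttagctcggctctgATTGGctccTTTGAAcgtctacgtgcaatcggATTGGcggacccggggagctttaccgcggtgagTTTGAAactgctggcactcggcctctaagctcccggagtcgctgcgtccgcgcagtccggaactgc
Cdc20: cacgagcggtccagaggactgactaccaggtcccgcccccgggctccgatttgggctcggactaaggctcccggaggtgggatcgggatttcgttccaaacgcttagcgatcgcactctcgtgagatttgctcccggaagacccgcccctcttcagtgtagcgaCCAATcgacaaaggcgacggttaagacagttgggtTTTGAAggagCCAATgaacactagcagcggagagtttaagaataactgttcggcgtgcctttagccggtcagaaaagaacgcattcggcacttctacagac
Plk1: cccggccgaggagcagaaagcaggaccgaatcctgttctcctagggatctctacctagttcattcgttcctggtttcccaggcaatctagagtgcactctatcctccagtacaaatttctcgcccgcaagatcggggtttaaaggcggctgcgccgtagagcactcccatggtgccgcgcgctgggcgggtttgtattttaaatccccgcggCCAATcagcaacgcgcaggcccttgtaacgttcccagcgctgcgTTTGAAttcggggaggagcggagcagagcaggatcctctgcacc

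In Ccnb2 the boxes began 134, 101 and 68 bases before the start and CHR strings 214 and 43 bases before it. In Cdk1, the mitotic kinase, CHR strings began 72 and 16 bases before the start. Cdc20, an activator of the anaphase-promoting complex, had a CHR string at 51 and boxes at 86 and 41 bases before the start. Plk1, a mitotic kinase, had its box 38 bases before the start and its CHR string 6 bases after it. Of these 4 genes Ccnb2 varied most across libraries, at 247, 158 and 176 CPM in members. Cdk1 stood at 410, 322 and 345 CPM in members, Cdc20 at 329, 288 and 282 CPM, and Plk1 at 137, 127 and 124 CPM. Ccnb1, at 320, 324 and 331 CPM, had 2 CCAAT boxes and no TTTGAA in its window. Of 9 windows found for 14 intermediate progenitor genes, 7 held CCAAT (77.8%, close to the share of the G2 and M genes), 1 held the CHR string and none the E-box CAGATG, which 16.3% of all promoters hold.

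Genes of neuronal differentiation were below the other Eomes cells in members. All 18 of that list but Elavl3 in E18 had a log2 ratio below 0 in each library, beside 3414 of 10204 usable genes. The list medians were -0.72, -1.22 and -0.68, although only Nhlh1 and Nhlh2 passed 2-fold in all 3. Nhlh2, a basic helix-loop-helix factor of newborn neurons, was at 5.12, 85.5 and 28.2 CPM in members against 50.3, 330 and 116. Dcx, the doublecortin of migrating neurons, was at 262, 174 and 304 CPM against 628, 500 and 567. Stmn2, a microtubule regulator of growing axons, had its widest gap in E16, at 283 CPM in members against 1908 CPM. Most genes called lower were outside this list. Scg5, a secretory granule chaperone, was at 8.43, 15.2 and 8.14 CPM against 32.4, 88.1 and 33.1. Mxd4, a MAX partner that antagonises MYC, was at 49.1, 24.2 and 39.2 CPM against 159, 82.2 and 118.

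Radial glial genes pointed the other way. Of 16, 3 were called higher in members than in the other Eomes cells, with medians of 0.91, 1.38 and 0.58. Of the same 16, 15 were above 0 in all 3 libraries, beside 3201 of 10204 usable genes. Sox2, a stem cell factor, was at 407, 265 and 291 CPM in members against 163, 61.9 and 139. Hes1, the repressor that Notch induces, was at 21.1, 29.9 and 29 CPM against 2.99, 9.49 and 13.3. Vim, the intermediate filament of radial glia, was the exception, at 1956 CPM in members of E14 against 2243 CPM.

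**Figure D2:**
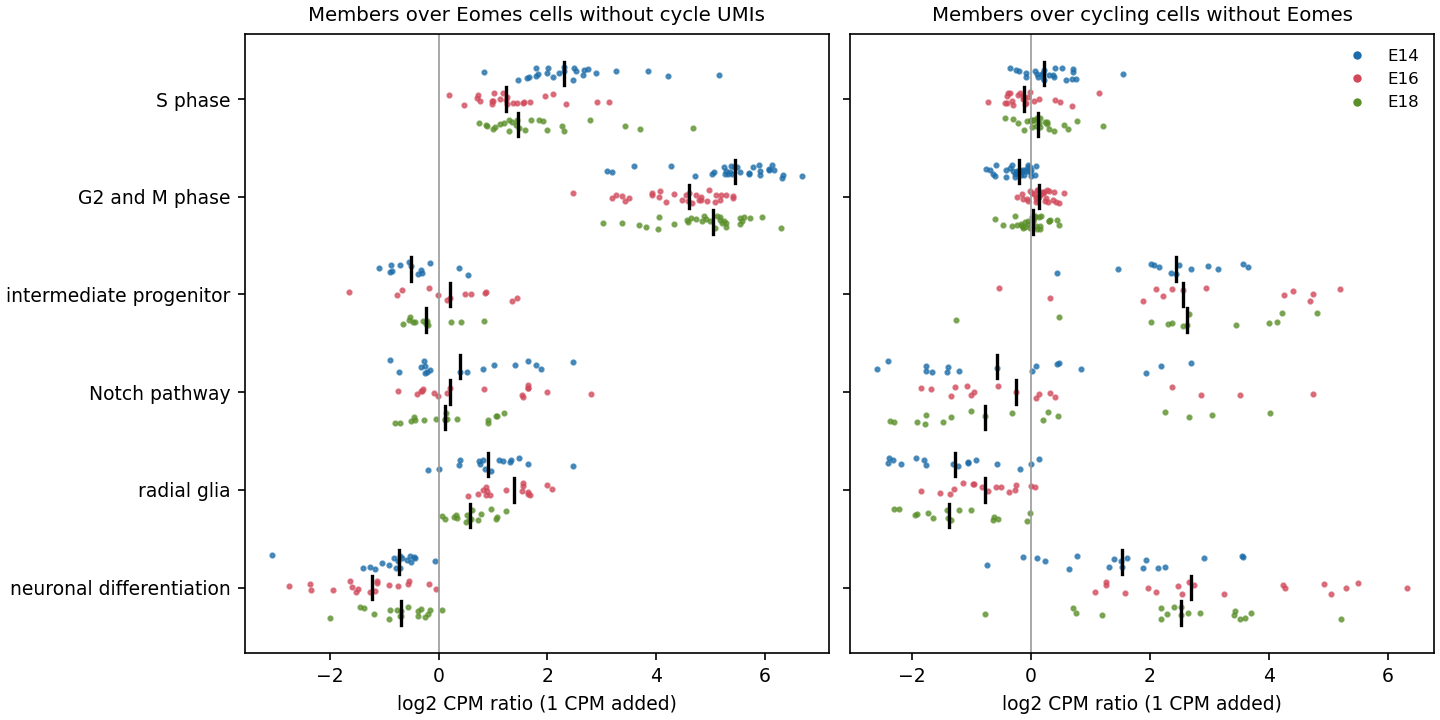
Each point is a gene of a list, placed by its log2 CPM ratio (1 CPM added) of members over Eomes cells without cycle transcripts (left) and over cycling Eomes-free progenitors (right) in E14 (blue), E16 (red) and E18 (green); black bars are medians. The G2 and M genes lie at medians of 4.60 to 5.46 on the left and near 0 on the right. The intermediate progenitor genes have medians of -0.51, 0.20 and -0.23 in label order on the left and of 2.45 to 2.62 on the right.

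Over the cycling Eomes-free progenitors, 187 of 10253 usable genes were higher in members (1.82%) and 127 were lower (1.24%). Without E14 the first count was 304, and without E16 the second was 358. The second also depended on a few deep cells: without the 7, 15 and 13 members of over 40000 UMIs it was 226, and with each cell weighted alike the counts were 246 and 290. None of the 30 G2 and M genes was called (medians -0.20, 0.14 and 0.04), and of the S genes only E2f1, which drives entry into S phase, at 101, 59.8 and 83.5 CPM against 33.9, 26.3 and 35.5. After thinning, 76.0%, 80.5% and 70.8% of members had more G2 and M than S UMIs, against 79.3%, 72.7% and 75.5% of the Eomes-free cells. Both populations were chosen by the same cycle sum and by opposite Eomes conditions, so like cycle levels are in part set by the choice.

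Of 13 intermediate progenitor genes (Eomes left out), 11 were higher in members than in cycling Eomes-free progenitors and none lower, with medians of 2.45, 2.56 and 2.62 beside -0.06, -0.05 and -0.07 over all usable genes. Gadd45g was at 407, 1080 and 817 CPM against 73.9, 40.5 and 42.5. Neurog2 was at 420, 433 and 415 CPM against 46.7, 92.3 and 69.6. Insm1, a zinc finger factor that promotes delamination and the making of basal progenitors, was at 470, 168 and 280 CPM against 90.9, 3.6 and 16.4. Hes6, which counters Hes1, was at 927, 1379 and 1064 CPM against 220, 177 and 172, and Btg2, an antiproliferative gene of neurogenic divisions, at 379, 454 and 372 CPM against 92.8, 76.2 and 90.4. Ccnd2 was outside this pattern: it was at 203, 239 and 211 CPM in members against 149, 348 and 507, above the Eomes-free cells in E14 and below them in E16 and E18.

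Ppp1r17, an inhibitor of protein phosphatases, ranked first by the smallest of its 3 ratios among genes of at least 20 CPM, with the genes of the rule left out. It was at 234, 25.7 and 159 CPM in members and at 5.60, 0.10 and 0.92 CPM in cycling Eomes-free progenitors. Eomes cells without cycle transcripts also held Ppp1r17, with shares after thinning of 31.0% in E14 and 7.85% in E16. After thinning it was found in 44.8%, 7.92% and 33.1% of members, against 2.88%, 0.046% and 0.68% of the Eomes-free cells and 0 of the 13, 129 and 47 vascular and meningeal cells, which allows up to 23.1%, 2.33% and 6.38%. Next came Cbfa2t3, a transcriptional corepressor (32.2, 26 and 38.4 CPM against 1.33, 0.44 and 1.21), Cdc42ep3, a CDC42 effector (104, 70.9 and 88.7 against 6.67, 1.96 and 4.50), and Kif26b, an unconventional kinesin (65.3, 32.4 and 100.4 against 4, 1.04 and 1.44). Sstr2, a somatostatin receptor, was at 80.7, 30.0 and 62.7 CPM against 5.87, 0.16 and 1.27.

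Cells chosen as members held neuronal transcripts beside cycle transcripts. Of the 18 neuronal genes, 12 were higher than in cycling Eomes-free progenitors and none lower, with medians of 1.53, 2.70 and 2.53. Neurod1, a proneural factor downstream of Neurog2, was at 223, 351 and 421 CPM against 17.9, 3.37 and 10.3. Rnd2, which acts in radial migration, was at 316, 280 and 375 CPM against 26.1, 28.5 and 29.9. Slc17a6, the vesicular glutamate transporter VGLUT2, was at 26.8, 45.2 and 43.7 CPM against 1.6, 1.44 and 2.08. The list median was smallest in E14, but this did not hold for every gene: the Rnd2 ratio was smallest in E16. In Eomes-free cells Neurod1 and Neurod6 were highest in E14, whereas Rnd2 was lowest there. Neurod6 was found after thinning in 25%, 1.14% and 8.02% of Eomes-free cells, against 0%, 3.10% and 10.6% of vascular and meningeal cells. Before thinning, the corresponding shares in E14 were 48.8% and 46.2%. The part of free RNA and of doublets in that level was not tested. Members were among the highest Scrublet scores, a measure of likely doublets, in 7.53%, 12.2% and 10.7%, against 3.56%, 4.16% and 4.55% of kept cells. With those cells removed the neuronal list medians stayed above 0. The part of remaining doublets in the neuronal transcripts of members was not tested.

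Genes of leaving the ventricular surface and migrating had 5 of 14 usable members called higher and none lower. They were Scrt2, a Snail family repressor of adhesion genes, Cxcl12, Rnd2, Dcx and Plxna2, a semaphorin receptor. Cxcl12, a chemokine of the subventricular zone, was at 117, 17.2 and 90.0 CPM in members against 2.93, 2.01 and 3.75 in cycling Eomes-free progenitors. Cdh2, the N-cadherin of apical junctions, was at 239, 209 and 222 CPM against 395, 271 and 287.

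Notch genes differed in both directions. The ligands Dll1 and Dll3 and the glycosyltransferase Mfng were higher in members than in cycling Eomes-free progenitors, and the receptors Notch2 and Notch3, the glycosyltransferase Lfng and the targets Hes1, Hey1 and Nrarp were lower. Dll1 was at 28.3, 125 and 52.8 CPM against 6.67, 9.97 and 5.48. Hes1 was at 21.1, 29.9 and 29 CPM against 115, 110 and 146, and Notch2 at 16, 15.4 and 11.7 CPM against 43.2, 32.0 and 42.1. Notch1 differed less, at 222, 159 and 149 CPM against 329, 190 and 301, and Rbpj, the DNA-binding partner of activated Notch, stood at 154, 151 and 192 CPM against 113, 120 and 140. Jag1, another ligand, was at 3.91, 6.26 and 1.72 CPM against 12, 9.61 and 3.64, below the Eomes-free cells in each library. The median over all 17 usable Notch genes was -0.56, -0.25 and -0.77.

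Radial glial genes were lower as a group: 5 of 16 were called lower, none higher, with medians of -1.27, -0.77 and -1.37. Fabp7, a lipid-binding protein of radial glia, was at 475, 190 and 176 CPM in members against 2154, 488 and 668, and Slc1a3, a glutamate transporter, at 59.3, 21.4 and 25.6 CPM against 315, 63.6 and 122. Pax6 differed less, at 261, 129 and 189 CPM against 295, 194 and 277, and Tead2, a TEAD family factor, was close in both, at log2 ratios of 0.14, 0.07 and -0.02. Read with the comparison to Eomes cells without cycle transcripts, Sox2, Pax6 and Hes1 stood between the other 2 populations in every library; Sox2 and Pax6 chose the Eomes-free cells, so for these genes their higher level there is set by the choice.

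**Figure D3:**
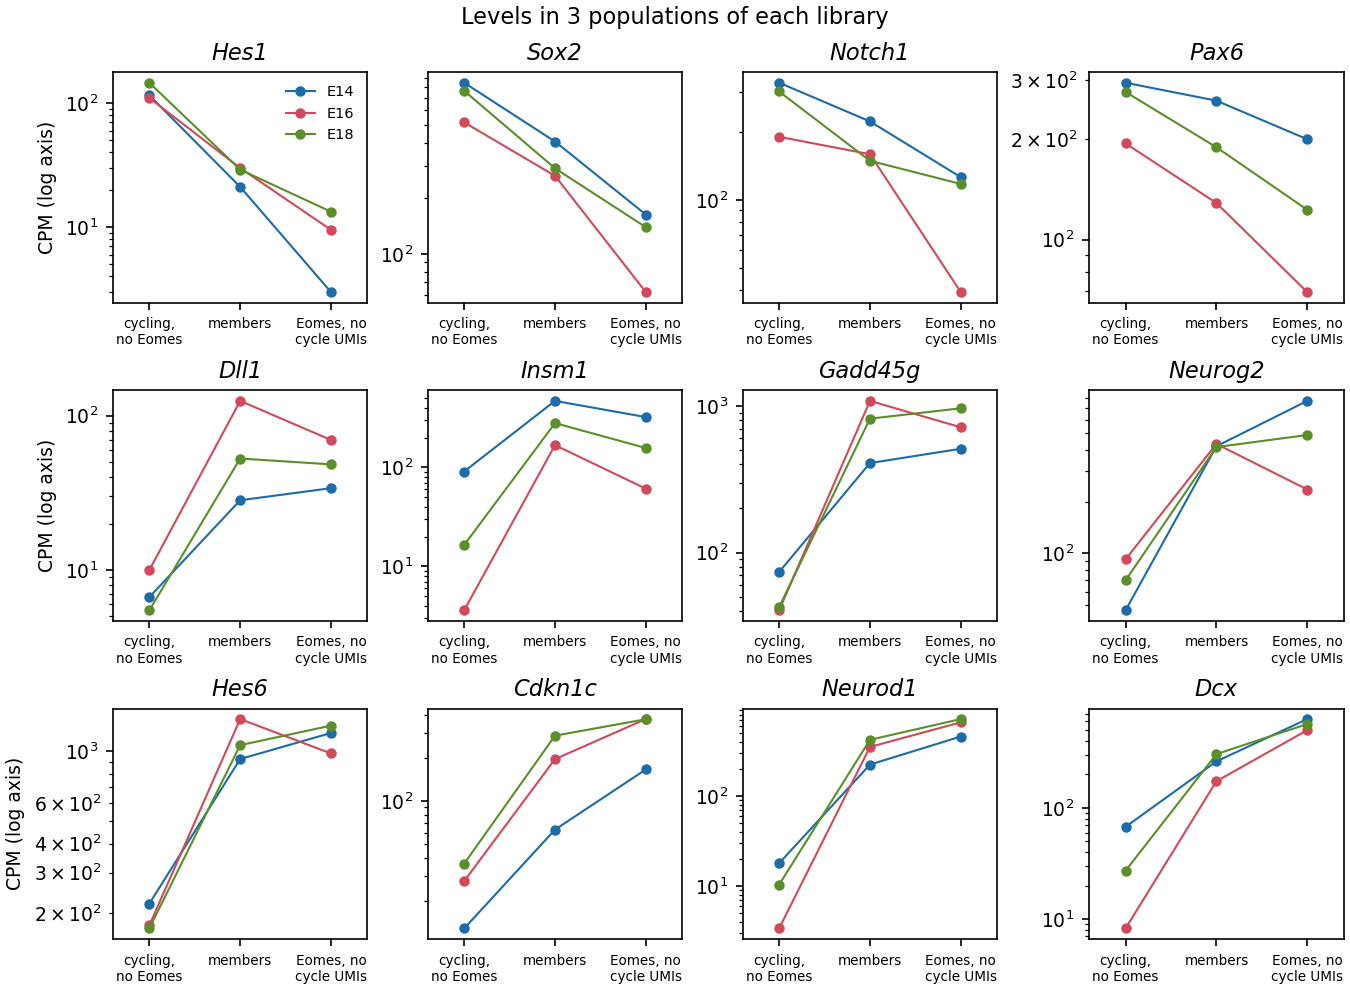
Level (CPM, log axis) of 12 genes in cycling Eomes-free progenitors, members and Eomes cells without cycle transcripts; each line joins the 3 populations of 1 library. Hes1, Sox2, Notch1 and Pax6 are lower from left to right, Cdkn1c, Neurod1 and Dcx are higher, and Insm1 is highest in members in all 3 libraries (470, 168 and 280 CPM).

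Among G1 regulators, Cdkn1c (p57), a cyclin-dependent kinase inhibitor tied to cell cycle exit, was the single gene of 13 called between the 2 cycling populations. It was at 62.9, 196 and 286 CPM in members against 12.8, 27.4 and 36.4, and at 166, 374 and 373 CPM in the other Eomes cells. Cdkn2c (p18), which inhibits CDK4 and CDK6, went with cycling instead: it was at 82.5, 34.2 and 65.0 CPM in members, 83.7, 30.4 and 63.6 CPM in the Eomes-free cells and 14.5, 3.61 and 5.71 CPM in the Eomes cells without cycle transcripts. Cdk4 was similar in all, at 1262, 996 and 1035 CPM in members against 955, 819 and 827 and 1299, 990 and 1115. The cyclin Ccnd1 was at 72.3, 160 and 31.4 CPM in members against 76.8, 270 and 39.5 in the Eomes-free cells.

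Members varied along the path from radial glia to neuron. After thinning to 5000 UMIs, 41.0%, 26.7% and 27.0% of members held a UMI of Pax6 or Sox2 and none of Neurod1. Transcripts of both kinds were found in 46.4%, 41.0% and 50.5%. Neurod1 without Pax6 or Sox2 was found in 9.29% (5.50 to 14.5), 23.5% (19.7 to 27.8) and 18.6% (15.8 to 21.7). Before thinning, a UMI of Pax6, with or without the others, was found in 93.5%, 69.2% and 83.8% of members. The corresponding Neurod1-only shares were 24.5%, 55.0% and 38.1% of Eomes cells without cycle transcripts, and 0.48%, 0.18% and 0.29% of cycling Eomes-free progenitors. The last shares are near 0 by construction, since those cells were chosen to hold Pax6 or Sox2. In vascular and meningeal cells, thinned alike, Neurod1 was found in 0%, 0.78% and 8.51% and Pax6 in 0%, 4.65% and 10.6%, where 0 of 13 cells allows up to 23.1%.

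**Figure D4:**
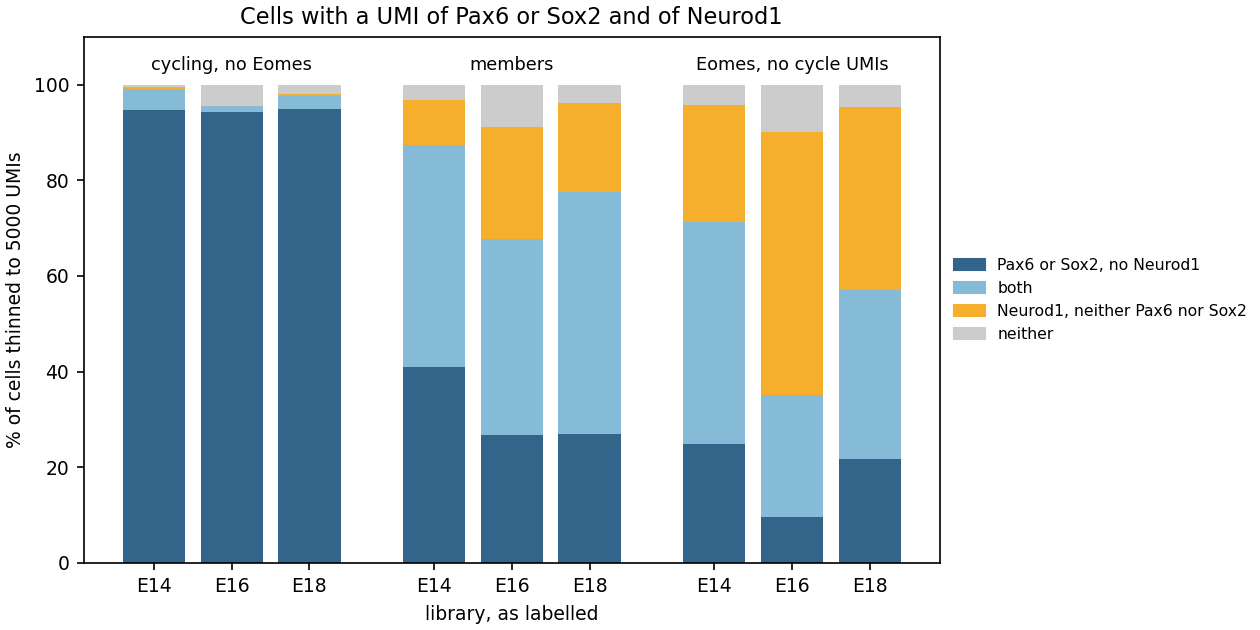
Percentage of cells, each thinned to 5000 UMIs, that held a UMI of Pax6 or Sox2 alone (dark blue), of these and Neurod1 (light blue), of Neurod1 alone (orange) or of neither (grey), by population and library. Cells with both make up 41.0% to 50.5% of members and 1.10% to 4.33% of cycling Eomes-free progenitors.

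Variation among members was ranked over genes of a mean of at least 0.5 UMIs. The measure was the Fano factor (variance over mean, 1 for pure counting) after thinning, and its median over 1312 genes was 1.12, 1.12 and 1.11. Ube2c reached 6.21, 8.38 and 8.31, H1f5, a replication-dependent linker histone, 5.77, 4.04 and 4.76, and Pclaf, a PCNA-associated factor, 3.37, 3.52 and 3.58. Stmn2, the axon growth gene, reached 4.64, 8.29 and 4.11, and Vim 8, 4.66 and 6.68. The other 7 of the first 12 were Tmsb10, Tuba1a, Tmsb4x, Arl6ip1, H3f3b, Ptma and Tubb5. Without thinning, 8 of these 12 stayed among the first 12.

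Most members held mitosis transcripts, as a rule that uses Top2a, Mki67 and Cenpf favours. At least 3 UMIs of 6 mitosis genes (Ccnb1, Ccnb2, Cdc20, Plk1, Aurka and Ube2c) were held by 154 of 186 members in E14 (82.8%), 358 in E16 (79.2%) and 519 in E18 (73.2%), and 12, 25 and 70 held none. These counts were not thinned, and the members without were shallower (medians of 11834, 10046 and 11863 UMIs against 15442, 13616 and 14483). In the latter Pcna was at 561, 640 and 697 CPM against 366, 318 and 344 CPM in the former, and Mcm6, a subunit of the replicative helicase, at 362, 300 and 400 CPM against 167, 129 and 137. Ccnd1 was also higher in those without mitosis UMIs in E16 (275 against 143 CPM) and E18 (65.9 against 21.8 CPM), and close in E14 (74.8 against 68.5 CPM). Hes6 differed little with cycle position, at 873, 1523 and 1196 CPM against 930, 1374 and 1042. Neurod1 was at 280, 369 and 165 CPM in members without mitosis UMIs and 239, 362 and 469 CPM in those with at least 3. Members with 1 or 2 mitosis UMIs were at 60.7, 271 and 315 CPM, so Neurod1 followed no common order with mitosis transcripts across libraries.

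Between libraries the lists differed unequally. In members, 293 of 9706 usable genes were at least 2-fold higher in E16 than in E14 (3.02%) and 477 lower (4.91%). E18 had 187 higher (1.93%) and 135 lower (1.39%) than E16, and 155 higher (1.6%) and 199 lower (2.05%) than E14. The 3 comparisons share libraries pairwise. None of the 30 G2 and M genes and none of the 24 S genes passed 2-fold in any of them, in cells that the same cycle sum had chosen in each library. Of 13 intermediate progenitor genes, 1 was higher and 2 lower in E16 than in E14, with a median log2 ratio of 0.05 beside -0.06 over all usable genes.

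Between E16 and E14 the genes of this list at least 2-fold apart were Gadd45g, Insm1 and Sstr2. Gadd45g was highest in E16 (1080 CPM, 1056 to 1104) and lowest in E14 (407 CPM, 386 to 430), with E18 between. Insm1 ran the other way, at 470 CPM (447 to 494) in E14, 280 in E18 and 168 (159 to 178) in E16, and Sstr2 did so too. Between E18 and E16, Sstr2 and Rhbdl3, a rhomboid-like protein, were higher in E18 (Rhbdl3 23.3 against 8.62 CPM) and Neurog1, a proneural factor, lower (14.9 against 34.9 CPM). Neurog2, at 420, 433 and 415 CPM, was close in all 3. Dll1 (28.3, 125 and 52.8 CPM), Dll3 (25.6, 66.5 and 42.5 CPM) and Hey1, a Notch target (8.73, 37.3 and 16.5 CPM), made 3 of 16 usable Notch genes at least 2-fold higher in E16 than in E14.

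Early-stage genes were highest in E16. Of 10 usable, 7 were at least 2-fold higher in E16 than in E14 (median 1.53), and 5 were lower in E18 than in E16 (median -1.02). Hmga2, a chromatin protein of young neural stem cells, was at 147 CPM (138 to 156) in E16, 5.97 in E18 and 3.31 in E14. Crabp2, a retinoic acid binding protein, was at 171, 61.7 and 7.83 CPM in the same order, and Igf2bp2, an RNA-binding protein that Hmga2 is known to regulate, at 128, 77.0 and 24.4 CPM. Outside this list, Lhx9, a LIM homeobox factor, was at 46.3, 11.6 and 3.01 CPM, and Ebf2, an Ebf family factor, at 59.5, 5.25 and 0.60 CPM. In cycling Eomes-free progenitors Hmga2 was higher in every library, at 230 CPM in E16, 24.6 in E18 and 14.4 in E14.

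Late-stage genes were mostly highest in E14. Of 15 usable, 8 were at least 2-fold lower in E16 than in E14 and none higher (median -1.32), and 9 were lower in E18 than in E14 and none higher (median -1.12). Between E18 and E16 they were mixed, with 4 higher and 3 lower in E18 (median 0.25). Nfix, a nuclear factor I member of later neurogenesis, was at 443 CPM in E14, 332 in E18 and 60.4 in E16. Zbtb20, a repressor of late progenitors, was at 464, 234 and 76.9 CPM, and Aldoc, a glycolytic enzyme of astroglia, at 178, 84.2 and 7.79 CPM. Tnc, an extracellular matrix protein of outer radial glia, had 0 UMIs in members of E16, which allows up to 0.417 CPM, against 25 CPM in E14 and 2.17 in E18; after thinning both E16 and E18 were at 0. The glial genes Fabp7, Slc1a3 and Mt3 had E18 close to E16 (Fabp7 475, 190 and 176 CPM in label order). Id1 and Id3, inhibitors of helix-loop-helix factors, were among those lowest in E18 (Id3 24.1, 18.6 and 3.35 CPM).

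Of 11 upper layer genes, 5 were at least 2-fold lower in E16 than in E14 and 1 higher (median -0.57). In that comparison 4 were above 0 and 7 below, beside 4202 and 5504 of 9706 usable genes. All 11 were above 0 in E18 over E16 (median 0.34), beside 5442 of 9706 usable genes (median 0.04). Pou3f2, a POU factor of upper layer neurons and their progenitors, was at 382 CPM in E14, 181 in E18 and 90.1 in E16. Unc5d, a netrin receptor of the subventricular zone, was at 82.2, 89.5 and 12.5 CPM. Plxna2 was the single one 2-fold higher in E16 and E18 (147 and 157 CPM) than in E14 (68.1 CPM). Deep layer genes did not go together: Bcl11b (Ctip2), a factor of corticospinal neurons, was at 50.9, 224 and 200 CPM in label order and Tle4 at 41.3, 95 and 60.8, whereas Foxp2 was lowest in E16, at 40.7, 23.4 and 49.9 CPM.

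Few genes separated E18 from both other libraries: 3 of 9706 usable genes were at least 2-fold higher there than in both and 12 lower, against 145 and 120 for E14 and 104 and 162 for E16. Cdkn1c was highest in E18, though under 2-fold above E16, at 286 CPM against 196 in E16 and 62.9 in E14, and Ccnd1 lowest by over 2-fold, at 31.4 CPM (28.2 to 34.9) against 160 and 72.3. Ptgr1, a prostaglandin reductase, was low in E14 alone, at 122, 108 and 22.6 CPM in E18, E16 and E14. Genes at their highest in E14 included Mapt, the axonal protein tau (78.3, 12.7 and 21.0 CPM in label order), Tubb2a, a beta-tubulin (172, 51.9 and 51.7 CPM), and Gpr85, an orphan receptor (59.6, 7.79 and 12.5 CPM).

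**Figure D5:**
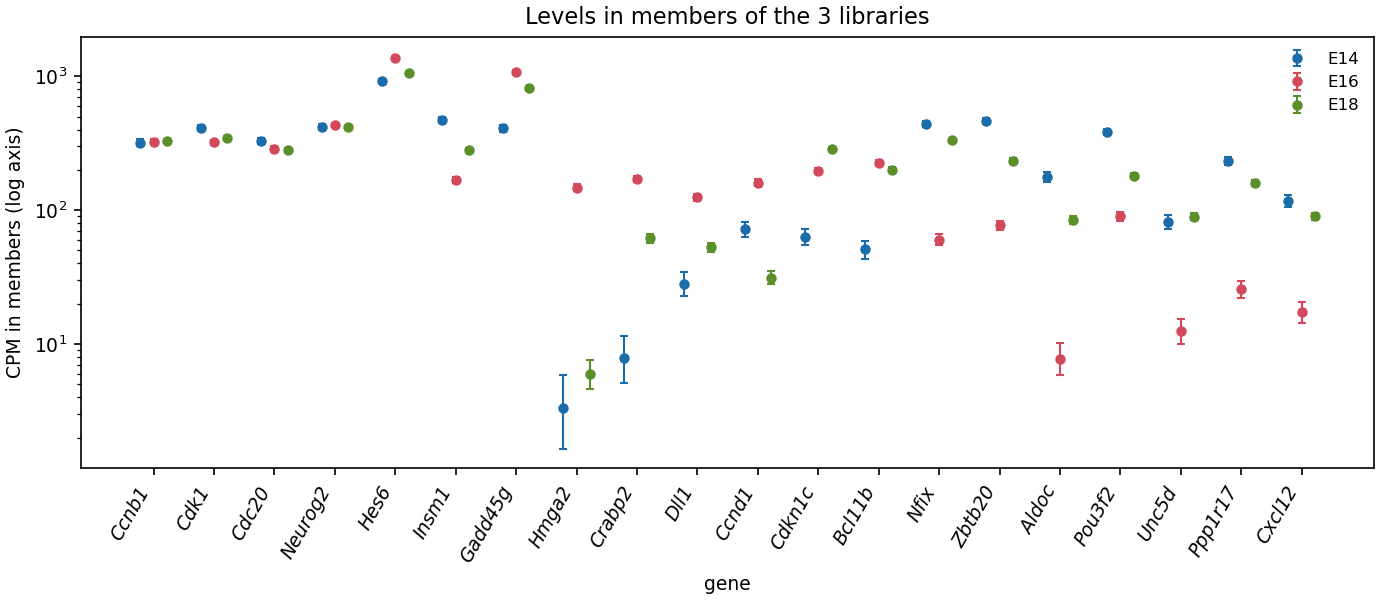
Level (CPM, log axis) in members of E14 (blue), E16 (red) and E18 (green) for 20 genes, with exact Poisson 95% intervals. Ccnb1 (320, 324 and 331 CPM) and Neurog2 (420, 433 and 415 CPM) lie close together, while E18 lies between the other 2 libraries for Hmga2, Nfix, Zbtb20, Aldoc and Pou3f2.

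Markers of other cell classes differed by class and library. Cajal-Retzius markers summed to 7.23, 51.0 and 8.96 CPM, and 0, 36 and 2 members held at least 3 of their UMIs. Lhx5 was at 0 in E14 and E18, and all 6 genes were above 0 in E16. Cortical hem markers summed to 2.41, 56.5 and 10.8 CPM, with 4 of 6 genes at 0 in E14. GABAergic markers summed to 44.3, 56.9 and 36.7 CPM, and Gad2 was found after thinning in 1.09%, 0.23% and 0% of members (0 of 703 allows up to 0.427%). Oligodendrocyte, endothelial and mural, and microglial markers each summed to at most 3.61 CPM. Meningeal markers summed to 1.20, 24.9 and 5.70 CPM and choroid plexus markers to 1.20, 573 and 183 CPM, with 0, 11 and 27 members of at least 3 choroid plexus UMIs. In E16, 5 members with over 5% of haemoglobin UMIs held 71859 of the 75725 haemoglobin UMIs of its members.

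Of the genes higher in E16 than in E14, Ebf2, Lhx9 and Nhlh2 are also made by early neurons. Without members holding other classes' markers, their log2 ratios between libraries kept their sign. How much of their level came from other cells among the members was not tested. With every cell left out that held at least 3 UMIs of another class or over 5% haemoglobin, 180, 360 and 630 members remained, and the cycling share of Eomes cells was 23.3%, 56.3% and 39.4%, close to the values with them. Ttr, the transthyretin of choroid plexus, was at 0.30, 550 and 174 CPM in members and made up most of that class in E16 and E18. In E16, 5 members held 3869 of its 3952 UMIs, and in E18, 5 members held 1515 of 1924. After thinning it was found in 5.88% of members of E16 and 19.5% in E18, with 7.75% and 25.5% of vascular and meningeal cells, so the share of members with a UMI was no higher than in cells that should lack it.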

How the data were processed

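Droplet 3′ single-cell libraries of embryonic rat cortex were analysed, 1 for each of 3 labels. The deposited matrices hold UMI counts per gene and barcode for 29772 genes, not normalized, made by the authors with Cell Ranger 6.0.1 on build mRatBN7.2, per the submitters' processing notes. The annotation is not given in the sources used here.

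Cells were filtered and members chosen as stated in the report. Counts were summed over the cells of a population and library and divided by their total (CPM). Usable genes had a mean of at least 5 CPM, and log2 ratios had 1 CPM added. The named genes were the 8 highest and 8 lowest for each pair of labels and the 12 highest and 12 lowest against each population, from genes of at least 20 CPM, besides genes of 13 lists, and the 12 highest Fano factors. Genes of the rule, mitochondrial, ribosomal, haemoglobin and sex-linked genes were left out of rankings. Members and lists were chosen with earlier results of these data known. Vascular and meningeal cells for the background were kept cells with at least 10 UMIs of 10 such genes. In E16, 2 of these 133 cells were also members. Thinning drew 5000 UMIs a cell without replacement, and 3, 10 and 6 shallower members were left out.

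Doublets were kept in the main results. As an alternative the highest Scrublet scores (Scanpy 1.11.5) were removed at 0.8% per 1000 cells, which took 14, 55 and 76 members (7.53%, 12.2% and 10.7%, against 3.56%, 4.16% and 4.55% of kept cells). Scrublet's own threshold marked 0.039% of cells in E16, too few to be used. Other alternatives changed the thresholds of the rule, the filters, the scaling, the CPM added and the usable minimum, and some were added after seeing the data. Members summed to 3320702, 7188942 and 11051741 UMIs in label order, with a highest depth of 206457, 124501 and 102446 UMIs in a cell. The script for ratios and calls was run on simulated counts of known fold first. The scripts ran under Python 3.11.15 with scipy 1.17.1, pandas 2.3.3, matplotlib 3.10.9 and numpy 2.4.6.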

Additional observations from a re-analysis of the deposited data

Results flagged for a closer look

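Of the 13 intermediate progenitor genes, 5 went opposite ways between libraries when members were set against Eomes cells without cycle transcripts, with counting intervals off 0 on both sides. The difference between libraries was not tested, as each label has 1 library. For Neurog2, the proneural factor, the log2 ratio was -0.87 in E14, 0.88 in E16 and -0.23 in E18. For Gadd45g it was -0.32, 0.60 and -0.23, for Hes6 -0.37, 0.49 and -0.28, and for Btg2 -0.55, 0.20 and -0.20. For Neurog1, a second proneural factor, it was 0.85 in E16 and -0.47 in E18, and in E14 the interval spanned 0. In E16 these genes were thus higher in the cycling cells, and in E14 and E18 in the others. Other values differ in the same way: the Eomes cells without cycle transcripts of E16 had the highest share with Neurod1 and neither Pax6 nor Sox2 (55.0%, against 24.5% in E14 and 38.1% in E18), and 13.1% of them held at least 3 UMIs of Cajal-Retzius markers. The part of either in the reversal was not tested.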

How the results depend on the processing

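Among the named genes at least 2-fold apart, 5646 of 5655 values under an alternative kept their sign and 5475 stayed 2-fold; of list medians at least 2-fold apart, 368 of 368 kept their sign and 338 stayed 2-fold. The exceptions follow, as log2 ratios. Against Eomes cells without cycle transcripts, Slc1a3 in E14 (1.10) became -0.22 with a 5% mitochondrial maximum and -0.054 after thinning, Lfng became -0.039 in E14 (1.40) and -0.68 in E18 (1.06) after thinning, Notch3 in E18 (1.21) became -0.46 and Tnc in E18 (1.33) became 0. For E18 over E16, Tnc (1.67) became 0 after thinning, and Ttr (-1.65) became 1.53 after thinning and 1.78 without members holding other classes' markers. The cycling share of Eomes cells (23.5%, 55.7% and 40.7% in E14, E16 and E18) was 26.7%, 61.0% and 44.4% at a cycle sum of at least 2, 20.3%, 47.5% and 34.5% at 6, 60.6% in E16 at an Eomes minimum of 5, 69.7%, 72.0% and 55.1% with a 5% mitochondrial maximum, and 15.2%, 47.6% and 33.8% after thinning. Without any cells of other classes' markers it was 23.3%, 56.3% and 39.4%. Members per cycling Eomes-free progenitor (0.865, 0.204 and 0.670) ran from 0.588 to 1.01, 0.162 to 0.229 and 0.565 to 0.721. Counts of genes over 2-fold shifted most. Higher and lower counts for E16 over E14, E18 over E16 and E18 over E14 (293 and 477, 187 and 135, 155 and 199) were 643 and 933, 380 and 217, 483 and 519 after thinning, 109 and 211, 66 and 46, 27 and 47 with 10 CPM added, and 100 and 239, 108 and 37, 58 and 54 for genes of at least 20 CPM. With the 5% maximum E18 had 239 higher than E14. Against Eomes cells without cycle transcripts (483 and 100), the lower count was 33 with the 5% maximum, 168 after thinning and 63 at 20 CPM, and both were 318 and 16 with 10 CPM added. Against cycling Eomes-free progenitors (187 and 127), both were 288 and 463 after thinning and 92 and 27 with 10 CPM added. The lower count alone was 194 at an Eomes minimum of 5, 81 with the 5% maximum, 201 without the highest Scrublet scores, 290 as a mean over cells, 77 at 20 CPM, 227 without members of other classes' markers and 226 without members of over 40000 UMIs. Stricter minimums and added CPM test or pass fewer low genes by construction, thinning leaves fewer UMIs, and the other causes were not tested. No paired analysis was possible because each label compared has 1 library; populations within a library were compared with no test, as all were chosen on the same counts. In the comparisons within libraries, leaving out each library in turn (added after seeing the data) gave 518 to 558 higher and 140 to 194 lower genes against Eomes cells without cycle transcripts, and 201 to 304 higher and 134 to 358 lower against cycling Eomes-free progenitors; a call on 2 libraries asks for less by construction. Members of E14 had the fewest UMIs (3320702), which limits low genes there: 0 UMIs allow up to 0.903 CPM.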
